A study of Homo sapiens with 4 samples.

Results

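The 9 genes described here encode integrin subunits of the receptors that bind the RGD sequence of matrix proteins, or that bind fibronectin by another route. They were chosen by name, as ITGA4, ITGA5, ITGA8, ITGAV, ITGB1, ITGB3, ITGB5, ITGB6 and ITGB8, from 60721 genes in the deposited count table. RNA was sequenced from HS578T, a long-established human breast carcinoma line whose label calls the cells epithelial. All cells received GFP by transfection. The SCR group received a non-targeting RNA and the siTLN1 group an siRNA against TLN1, both at 1.6 µM, and RNA was taken 48 h later. Each group held 2 libraries, called biological replicates by the submitters, with no statement that they came from separate cultures, so the p-values measure the spread between these libraries only. The sequence of the siRNA, and whether it was a single duplex or a pool, is not given in the sources used here. Libraries are called a and b after a number that the column headers carry in both groups. No label says what it marks.

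Integrins are receptors made of 1 alpha and 1 beta chain that span the plasma membrane. The pair formed by ITGA5 and ITGB1 is the main fibronectin receptor of many mesenchymal cells. ITGAV pairs with ITGB1, ITGB3, ITGB5, ITGB6 or ITGB8 and binds RGD in vitronectin, fibronectin and the latent form of TGF-beta. ITGA8 pairs with ITGB1 and binds RGD in nephronectin. ITGA4 pairs with ITGB1 and binds VCAM1 and an alternatively spliced stretch of fibronectin that does not use RGD. Talin-1, the product of TLN1, binds the cytoplasmic tails of most beta chains, switches the receptors to their high-affinity state and ties them to actin. The tail of ITGB8 differs from those of the other beta chains and lacks the usual talin-binding motif.

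Total counts assigned to genes ran from 31854322 to 46353297 per library, and the 9 subunits together took 0.393% to 0.425% of them. TLN1 was at 868 and 874 CPM (a library's counts scaled to a common total, with TMM factors) in the SCR libraries and at 51.9 and 44.8 CPM in the siTLN1 libraries, so the target transcript followed the labels. Of the epithelial markers, KRT18 was at 104 to 131 CPM and KRT8 at 15.1 to 20.7 CPM. In contrast, EPCAM was at 0.144 CPM or below and CDH1 at 0.851 CPM or below in each library. The mesenchymal marker VIM was at 3811 to 3968 CPM. KRT18, at 150 to 180 TPM, made up most of the summed level of 8 epithelial markers in each library. The summed level of these 8 was 162 to 194 TPM in SCR and 167 to 183 TPM in siTLN1. That of 8 mesenchymal markers was 14362 to 14812 TPM in SCR and 11744 to 12342 TPM in siTLN1. Of these, CDH2 and SPARC passed the test and were lower, whereas VIM, COL1A1, FBN1, SNAI2, TWIST1 and ZEB1 did not pass. The sum is weighted by abundant genes, among them COL1A1 and SPARC at mean levels of 4983 and 3964 TPM. The part of the difference in summed level in the results below was not tested. The 5 leukocyte markers summed to 1.95 to 3.16 TPM per library, with CD3E and LYZ at 0 in all libraries and CD14, PTPRC and CD79A at 0.976 CPM or below. In such bulk RNA, fewer cells that express a gene and less of its RNA per cell cannot be told apart.

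Of the 9 subunits, 8 passed the filter on low counts, and ITGB8 was the only one that passed the test, with a higher level in siTLN1. ITGB6 did not pass the filter, and it is also the only one with no row in the authors' deposited log2 CPM table. Across all 16137 genes tested, 6.07% passed the threshold of 0.05 for the p that edgeR's quasi-likelihood F-test gave after Benjamini-Hochberg adjustment, 2.30% being higher in siTLN1 and 3.77% lower. The count of 1 in 8 is therefore close to the share among all genes. The median log2 fold change of the 8 tested subunits was 0.11, against 0.0033 over all genes tested, with 6 values above and 2 below 0. The libraries of the groups did not overlap for 5 of these 8, of which 3 were higher and 2 lower in siTLN1. This too is near the background, since 48.4% of all tested genes had no overlap between 2 and 2 libraries.

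A word of 7 bases, GACAACA, was followed because genes that hold it in their 3′ UTR tended to lower values. Among 11963 tested protein-coding genes whose 3′ UTR reaches 100 bases, TLN1 not counted, the 940 whose 3′ UTR holds GACAACA had a median log2 fold change of −0.10, and those without it had a median of 0.014. The word was picked from earlier results on the same libraries, so these medians are a description and no support. They were not matched for 3′ UTR length, and the part of length in them was not tested. Transcripts of GENCODE 29 were searched on the sense strand only, taking for each gene the transcript with the most coding bases. TLN1 itself holds 1 copy, in its coding sequence. Of the 9 subunits, only ITGB8 and ITGA5 hold the word in the coding sequence or 3′ UTR of any coding transcript searched. The copies are printed 5′ to 3′ with the word in capitals, because ITGB8, the subunit that rose, holds 3 of them:
TLN1 coding sequence, exon 41, chr9:35706026-35706054, minus strand: gtagaggacctGACAACAaccctcaacga
ITGB8 coding sequence, exon 7, chr7:20391431-20391459, plus strand: agaaattaataGACAACAacattaatgtc
ITGB8 coding sequence, exon 10, chr7:20401845-20401873, plus strand: gtcagtgtgagGACAACAgaggacctaaa
ITGB8 3′ UTR, exon 14, chr7:20411982-20412010, plus strand: gttttgcccatGACAACAaaggaatctat
ITGA5 coding sequence, exon 19, chr12:54403006-54403034, minus strand: actgtggagaaGACAACAtctgtgtgcct
Coordinates are GRCh38. The 3′ UTR of the ITGB8 transcript is 5757 bases long, and 25.5% of the 1315 genes with a 3′ UTR of at least 4000 bases hold the word there, against 7.86% of all 11963. In coding sequences it is held by 15.97% of these genes. A match to the word is a description of the sequence and not a site of action.

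Levels between genes were compared per length, as TPM, with the exon length of the deposited table. The order over the 4 libraries was ITGB1, ITGA5, ITGB5, ITGAV, ITGA8, ITGA4, ITGB3, ITGB8 and ITGB6. Each neighbouring pair in this order was separated, since the lowest library of the upper gene lay above the highest library of the lower one. As a ratio, the nearest pair was ITGB1, at 946 TPM or more, and ITGA5, at 823 TPM or less. By CPM, without length, the order of the means was the same, but ITGA5 (1412 CPM) lay above ITGB1 (1346 CPM) in SCR library b, and the ranges of ITGB3 (from 13.0 CPM) and ITGB8 (up to 14.8 CPM) overlapped. The widest gap in TPM, again as a ratio, lay below ITGB8, which was at 1.77 TPM or more, against 0.126 TPM or less for ITGB6.

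**Figure D1:**
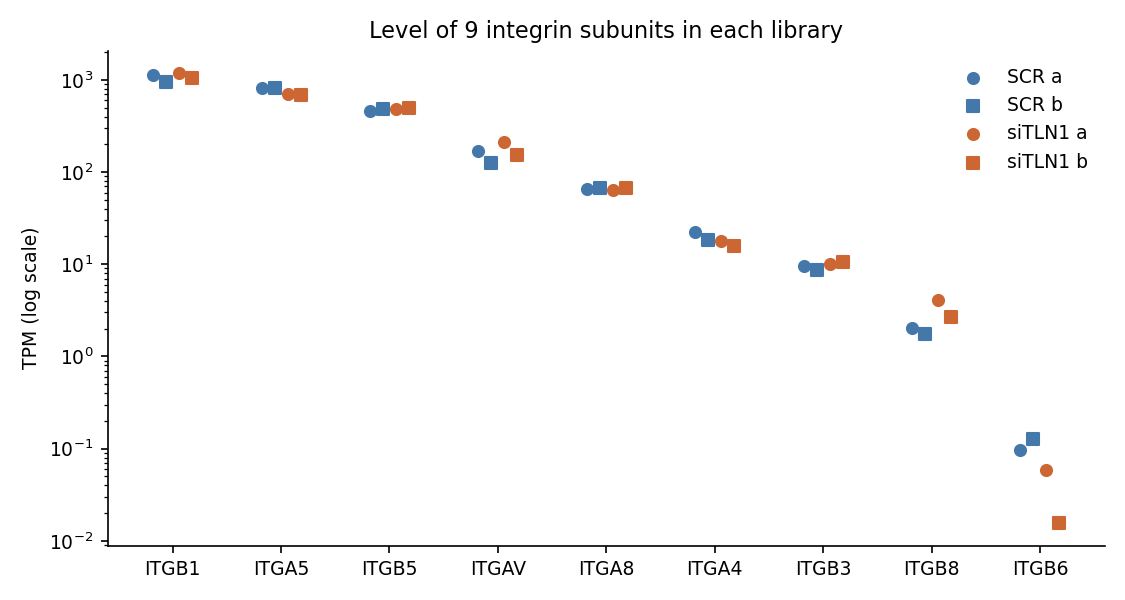
Level of each subunit in TPM (length-scaled level, log axis) in each of the 4 libraries, ordered by mean. Circles are libraries a and squares libraries b. ITGB1 reaches 1180 TPM, ITGB6 stays at or under 0.126 TPM, and the siTLN1 points of ITGB8 lie above its SCR points.

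Counting limits the level of some subunits. Counting ignored strand, and reads that touch several genes went uncounted, since featureCounts was run with its default for them. Of the exon bases of ITGB3, 35.9% also lie in a gene of the same strand, ENSG00000259753, which had 0 counts in all 4 libraries. For ITGB6 the share was 16.7%, with ENSG00000285155. For ITGA4, 14.8% of exon bases lie in CERKL on the opposite strand, which had 2 counts or fewer per library. The levels of these 3 subunits may therefore be too low in all libraries. For ITGB1 the shared part was 6.67% and for ITGAV 2.47%, both with opposite-strand genes, and for ITGA5 and ITGB8 it was 0.650% and 0.647%. ITGA8 and ITGB5 shared no exon base.

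Among the alpha chains, ITGA5 (ENSG00000161638.11; GRCh38, chromosome 12, 54395261 to 54419266, minus strand) was the most abundant. It stood at 1375 and 1412 CPM in SCR and at 1246 and 1199 CPM in siTLN1. Both siTLN1 libraries were below both SCR libraries. Its log2 fold change of −0.19 (standard error 0.10, 95% confidence interval −0.40 to 0.023) did not pass the test (adjusted p 0.318). A reduction of more than 0.40 on the log2 scale lies outside this interval.

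ITGAV (ENSG00000138448.12; chromosome 2, 186590056 to 186680901, plus strand) is the partner of all 5 beta chains considered here. Its level was 314 and 241 CPM in SCR and 424 and 299 CPM in siTLN1. The groups overlapped, because SCR library a lay above siTLN1 library b. The means were 278 ± 51.8 CPM (SD, n = 2) and 362 ± 88.1 CPM (SD, n = 2). On the log2 scale ITGAV differed by 0.38 (standard error 0.17, interval −0.0064 to 0.77), short of the threshold (adjusted p 0.261). Library a lay above library b in both groups, and under each letter the siTLN1 library lay above the SCR library. The size of the value therefore moved with the libraries kept. A fit with the replicate as a block passed ITGAV, as given below, but no label states a pairing. Without SCR library a it was 0.59 (adjusted p 0.00127) and without siTLN1 library b it was 0.61 (adjusted p 0.00205), both past the threshold. Removal of SCR library b gave 0.20, and removal of siTLN1 library a gave 0.11. In these fits the lone library of a group is taken to vary like the others.

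ITGA8 (ENSG00000077943.8; chromosome 10, 15513954 to 15719922, minus strand) was at 108 and 115 CPM in SCR and at 112 and 116 CPM in siTLN1. The groups overlapped, and the log2 fold change was 0.033 with an interval of −0.16 to 0.23 (adjusted p 0.899). ITGA4 (ENSG00000115232.14; chromosome 2, 181457202 to 181538940, plus strand) was at 54.3 and 46.4 CPM in SCR and at 45.3 and 39.9 CPM in siTLN1. Its siTLN1 libraries lay below its SCR libraries, by a small gap between SCR library b and siTLN1 library a. The log2 fold change of ITGA4 was −0.24 (standard error 0.11, interval −0.47 to −0.013). This interval lies below 0 but is not adjusted for the number of genes tested, and ITGA4 did not pass (adjusted p 0.222).

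**Figure D2:**
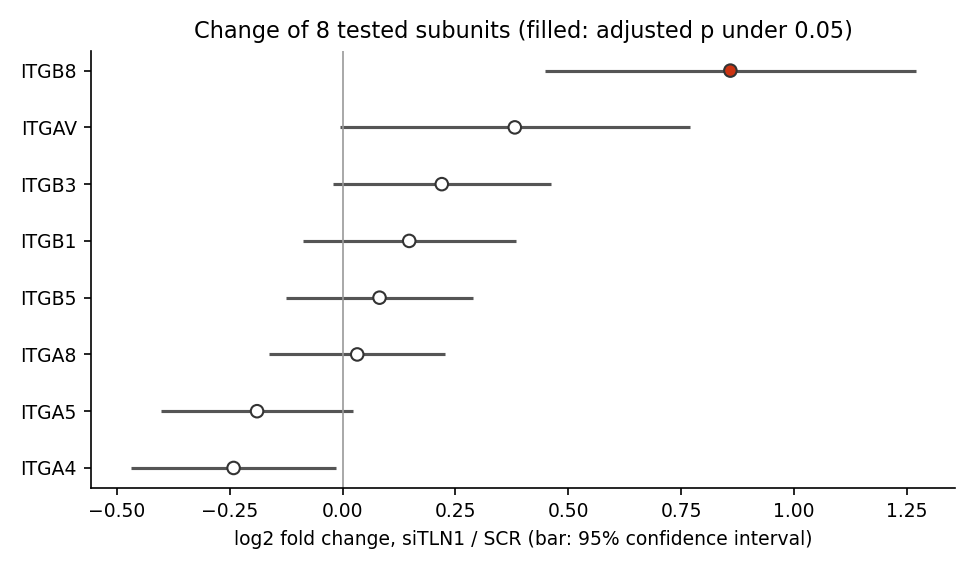
Log2 fold change of siTLN1 against SCR for the 8 tested subunits, with bars for the 95% confidence interval. ITGB8 at 0.86 is the filled point past the threshold, and the interval of ITGAV runs from −0.0064 to 0.77.

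The balance of the alpha chains can be read within each library, where the scaling between libraries drops out. ITGA5 made up 76.2% and 79.5% of the summed TPM of the 4 alpha chains in SCR and 70.3% and 74.4% in siTLN1. ITGAV made up 15.6% and 12.2% in SCR and 21.5% and 16.7% in siTLN1. The ITGAV to ITGA5 ratio of TPM was 0.205 and 0.153 in SCR and 0.306 and 0.224 in siTLN1. Both siTLN1 libraries were above both SCR libraries, with means of 0.179 ± 0.0368 (SD, n = 2) and 0.265 ± 0.0576 (SD, n = 2). An exact two-sided permutation test gave p = 0.333, which is the smallest value that 2 against 2 libraries can reach. The ITGA5 to ITGB1 ratio was 0.721 and 0.855 in SCR and 0.595 and 0.649 in siTLN1, again without overlap and with the same exact permutation p of 0.333. These are 2 of 6 ratios computed, none of which can pass a threshold of 0.05 in this design before or after adjustment. The ITGB8 to ITGB5 and ITGB3 to ITGB5 ratios also had no overlap and the same exact permutation p, and that of ITGAV to ITGB5 overlapped. Since ITGA5 and ITGAV make up most of the alpha sum, their shares and their ratio are not independent readings. The ITGAV to ITGB1 ratio overlapped, at 0.148 and 0.131 in SCR and 0.182 and 0.146 in siTLN1.

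**Figure D3:**
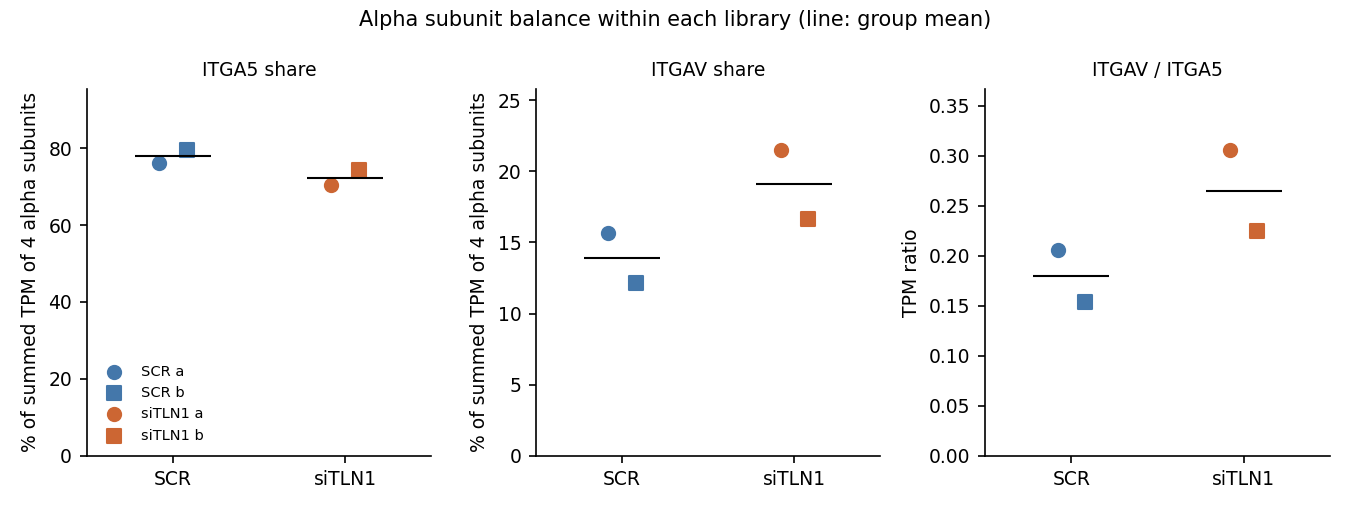
Share of ITGA5 and of ITGAV in the summed TPM of the 4 alpha chains, in percent, and the ITGAV to ITGA5 ratio of TPM, for each library, with a line at each group mean. The siTLN1 ratios of 0.306 and 0.224 lie above the SCR ratios of 0.205 and 0.153.

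Among the beta chains, ITGB1 (ENSG00000150093.19; chromosome 10, 32900318 to 33005792, minus strand), the partner of most alpha chains, was at 1552 and 1346 CPM in SCR and at 1706 and 1503 CPM in siTLN1. The groups overlapped, and the log2 fold change was 0.15 with an interval of −0.088 to 0.38 (adjusted p 0.514). ITGB1 made up 65.8% to 70.5% of the summed TPM of the 5 beta chains in each library. ITGB5 (ENSG00000082781.12; chromosome 3, 124761948 to 124901418, minus strand) forms the vitronectin receptor with ITGAV. It was at 685 and 742 CPM in SCR and at 752 and 758 CPM in siTLN1, with both siTLN1 libraries above the SCR libraries. Its log2 fold change was 0.082 with an interval of −0.13 to 0.29 (adjusted p 0.717), and the gap between SCR library b and siTLN1 library a was smaller than the spread of the SCR libraries.

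ITGB3 (ENSG00000259207.8; chromosome 17, 47253846 to 47313735, plus strand), the other vitronectin receptor chain, was far lower. It stood at 13.8 and 13.0 CPM in SCR and at 15.2 and 16.0 CPM in siTLN1. Both siTLN1 libraries were above both SCR libraries, but the log2 fold change of 0.22 (standard error 0.11) did not pass the test (adjusted p 0.305). ITGB3 was at 0.018 to 0.022 times the TPM of ITGB5 in each library, a ratio that the shared exon bases of ITGB3 may lower.

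ITGB8 (ENSG00000105855.10; chromosome 7, 20330702 to 20415754, plus strand), whose pair with ITGAV binds latent TGF-beta, rose from a low level. Raw counts were 222 and 221 in SCR and 538 and 448 in siTLN1. This was 6.98 and 6.35 CPM in SCR and 14.8 and 9.53 CPM in siTLN1. Both siTLN1 libraries were above both SCR libraries, and the 2 siTLN1 libraries differed more from each other than the SCR libraries did. The means were 6.66 ± 0.451 CPM (SD, n = 2) and 12.2 ± 3.71 CPM (SD, n = 2). The fitted fold of the edgeR model was 1.81, or 0.86 on the log2 scale (standard error 0.19, interval 0.45 to 1.27), with an adjusted p of 0.0191.

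The call for ITGB8 rested on siTLN1 library a. Without that library the log2 fold change was 0.52 and the adjusted p 0.175. Without siTLN1 library b it was 1.15 (adjusted p 4.47e-06). The authors' deposited log2 CPM values have columns named by replicate. They were 2.81 and 2.68 for SCR replicates 1 and 2 and 3.89 and 3.26 for siTLN1 replicates 1 and 2. On the log2 scale, replicate 1 lay close to library a and replicate 2 to library b in both groups. ITGB8 remained a small part of the beta chains, at 0.126% and 0.123% of their summed TPM in SCR and 0.242% and 0.170% in siTLN1.

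**Figure D4:**
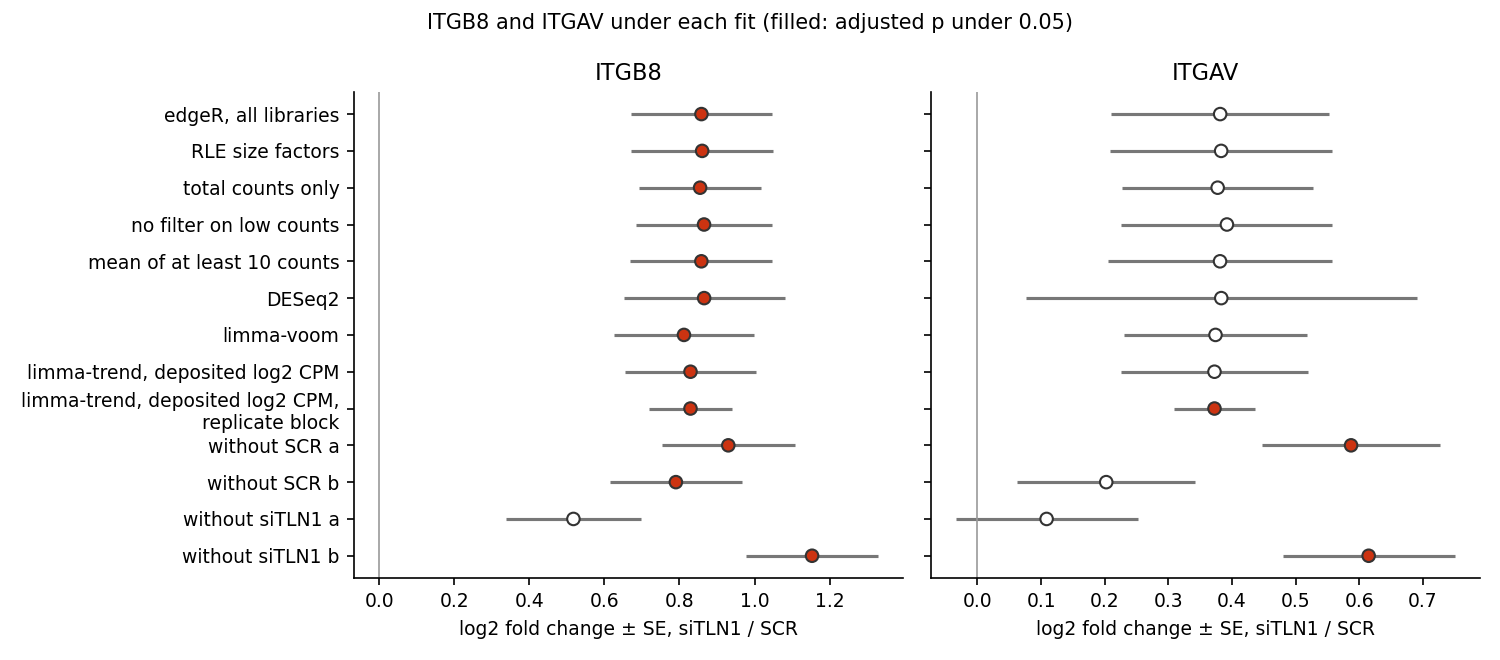
Log2 fold change of ITGB8 and ITGAV, with bars for the standard error, under the reported fit and 12 alternatives, filled where the adjusted p was under 0.05. Leaving out siTLN1 library a takes ITGB8 to 0.52 and below the threshold, and ITGAV runs from 0.11 to 0.61 as single libraries are left out.

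ITGB6 (ENSG00000115221.12; chromosome 2, 160099667 to 160200313, minus strand), an epithelial chain whose pair with ITGAV also binds latent TGF-beta, had 4 and 6 counts in SCR and 3 and 1 counts in siTLN1. Pooled over libraries, the siTLN1 to SCR ratio of its scaled counts was 0.320 with an exact 95% interval of 0.0731 to 1.11, which covers counting error only. A difference was not detectable at this depth.

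Likeness to ITGB8 was read as Euclidean distance between log2 CPM values centred on each gene's mean over the 4 libraries. Candidates came from 10476 genes with a symbol and a mean of at least 5 CPM, with all integrin subunits then left out. The nearest were MAST4 (distance 0.20), SNHG4 (0.21) and COL6A6 (0.22). MAST4, a kinase gene, was at 8.87 and 7.21 CPM in SCR and at 15.5 and 10.7 CPM in siTLN1. SNHG4, a host gene of small nucleolar RNA, was at 5.06 and 5.46 CPM in SCR and at 10.7 and 7.60 CPM in siTLN1. COL6A6, a collagen VI chain gene, was at 35.6 and 26.0 CPM in SCR and at 65.9 and 43.3 CPM in siTLN1. In the edgeR test MAST4 (adjusted p 0.0333) and SNHG4 (adjusted p 0.0118) passed, and COL6A6 (adjusted p 0.121) did not. In all 3, as in ITGB8, siTLN1 library a was the highest, which follows from their choice by nearness to the values of ITGB8. The distances rest on 4 libraries and are a description.

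The remaining 17 integrin subunit genes bind collagens, laminins or leukocyte ligands for the most part. Of these, 8 were tested, 1 rose and 1 fell, with a median log2 fold change of 0.014. The share past the threshold among all genes tested was 6.07%. ITGA10, an alpha chain of a collagen receptor, was at 14.7 and 20.3 CPM in SCR and at 28.7 and 32.9 CPM in siTLN1, a log2 fold change of 0.82 (adjusted p 0.00423). ITGA2, another collagen receptor chain, was at 129 and 114 CPM in SCR and at 98.0 and 93.8 CPM in siTLN1, a log2 fold change of −0.34 (adjusted p 0.0473). That call was lost without SCR library a (−0.24), siTLN1 library a (−0.37) or siTLN1 library b (−0.30), with adjusted p from 0.200 to 0.263. The most abundant of these subunits were ITGA11, ITGA3 and ITGA2, at mean levels of 302, 124 and 58.6 TPM. The beta chains ITGB2, ITGB4 and ITGB7 were at 0.247 CPM or below in every library.

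Ligands of the 9 subunits were read from a list of 28 genes, of which 21 were tested. Of these, 1 rose and 1 fell (median log2 fold change 0.061), against 6.07% of all tested genes past the threshold. Fibronectin, FN1, was the most abundant at a mean of 6267 TPM in SCR and 7214 TPM in siTLN1. Its log2 fold change of 0.25 did not pass the test (adjusted p 0.343). POSTN (periostin) and CCN2 followed, at mean levels of 5330 and 1755 TPM. L1CAM, a cell adhesion molecule with RGD sequences, was at 64.9 and 59.0 CPM in SCR and at 41.7 and 32.6 CPM in siTLN1, a log2 fold change of −0.74 (adjusted p 0.0016). FBN2, an RGD-bearing fibrillin, was at 13.0 and 10.7 CPM in SCR and at 17.9 and 17.4 CPM in siTLN1, a log2 fold change of 0.58 (adjusted p 0.00909). The call for FBN2 was lost without SCR library b (0.44, adjusted p 0.0570) or siTLN1 library a (0.56, adjusted p 0.0795). VCAM1 and NPNT, ligands of the ITGA4 and ITGA8 receptors, were at 0.230 CPM or below in all libraries and were not tested.

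Proteins that bind integrin tails, steer their activation or carry them through endosomes formed a list of 34 genes. Of these, 32 were tested, 3 rose and 4 fell, with a median log2 fold change of −0.068. Across all genes tested, 6.07% passed the threshold. The list was chosen with earlier results of these data known, so its count is a description and no support. RASSF5, an effector of RAP1, had a log2 fold change of 0.94 (adjusted p 0.00229), at 2.89 and 3.50 CPM in SCR and 5.96 and 6.36 CPM in siTLN1. CIB1, an integrin alpha tail binder, had one of −0.59 (adjusted p 0.00431). FERMT1 (kindlin-1), an activator that binds beta tails, had a value of −0.48 (adjusted p 0.0139). ITGB1BP1, a binder of the ITGB1 tail that limits its activation, had a value of −0.38 (adjusted p 0.0291), and RAB11FIP1, which serves integrin recycling, one of 0.46 (adjusted p 0.0318). RAB4A, named after its value was seen, also passed the test with a log2 fold change of −0.42 (adjusted p 0.0469), and its call was lost in all 4 fits that left out 1 library.

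Leaving out siTLN1 library a also lost the calls of CIB1 (log2 fold change −0.47, adjusted p 0.101), FERMT1 (−0.53, 0.0724), ITGB1BP1 (−0.29, 0.359) and RAB11FIP1 (0.36, 0.303). The call of FERMT1 was also lost without SCR library a (−0.35, adjusted p 0.0890) or siTLN1 library b (−0.43, 0.0796), that of ITGB1BP1 without SCR library a (−0.34, 0.0708), and that of RAB11FIP1 without SCR library b (0.31, 0.191). All these values kept their direction, and that of FERMT1 without siTLN1 library a was larger than with all libraries. The calls of RASSF5, ITGA10 and L1CAM held in all 4 such fits. Genes on the opposite strand cover 33.1% of ITGB1BP1 exon sequence, 24.8% for RAB11FIP1 and 14.5% for CIB1, which makes these counts uncertain.

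**Figure D5:**
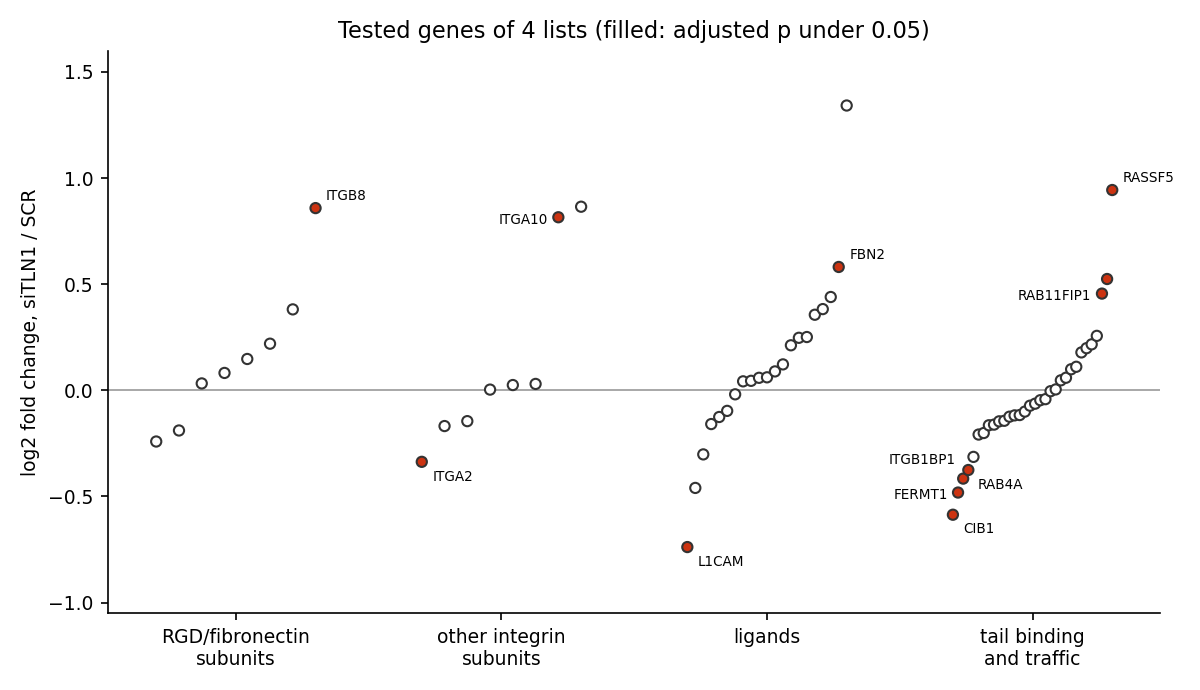
Log2 fold change of siTLN1 against SCR for every tested gene of the 9 subunits, the other integrin subunits, the ligands and the tail-binding and traffic genes, each list sorted by value, filled where the adjusted p was under 0.05, with the names of those described in the text. The filled points number 1 of 8, 2 of 8, 2 of 21 and 7 of 32, against 6.07% of all genes tested. The lists were chosen with earlier results of these data known.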

How the data were processed

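The authors deposited raw counts per gene, made with featureCounts (Subread 2.0.0) in paired-read mode on GENCODE 33 (GRCh38), per the file headers. STAR 2.7.9a and edgeR 3.34.1 are named in the submitters' processing notes, with no role given. The deposited log2 CPM table holds 16137 genes, the same that edgeR's filterByExpr keeps. Count columns were assigned to groups by name, and 60402 of 60721 gene IDs matched a symbol.

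The siTLN1 and SCR groups were fitted in edgeR 4.0.16 under R 4.3.3, with filterByExpr (minimum count 10, minimum total 15), TMM scaling, estimateDisp, glmQLFit (robust, current method) and glmQLFTest, with Benjamini-Hochberg adjustment over all tested genes. Standard errors and 95% intervals follow from the quasi-likelihood F statistic. The biological coefficient of variation was 0.0805. TPM used the deposited exon lengths of all transcripts merged, which lowers the level of a gene whose used isoform is shorter. The procedure was also run on simulated counts, drawn independently with the same dispersion for every gene. That simulation held no difference shared by the replicates of both groups, so it does not bear on one. Alternatives used DESeq2 1.42.0 and limma 3.58.1, and figures matplotlib 3.10.9. The members, gene lists and named-gene rule were chosen with earlier results of these data known. From the lists, the rule names called genes, up to 6 with the smallest p, the 3 most abundant ligands and other subunits, and the 3 genes nearest to each called member. One gene of the tail-binding list is not reported here and enters the counts of that list only.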

Additional observations from a re-analysis of the deposited data

How the results depend on the processing

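ITGB8 kept its direction and stayed past the threshold in all 8 alternatives with 4 libraries (log2 fold change 0.81 to 0.87). Across fits that left out 1 library it ran from 0.52 to 1.15, losing the call without siTLN1 library a. ITGAV ran from 0.11 to 0.61 in those fits and ITGB6, a value with no test, from −2.81 to −0.85. ITGA8 ran from −0.013 (without SCR library a) to 0.081. CCN2 ran from −0.039 (without SCR library a) to 0.17 and was −4.6e-05 without siTLN1 library a. POSTN ran from −0.19 to 0.13 (without siTLN1 library b) and was 0.076 without SCR library a. These 3 reversed where a library is named, and none passed the threshold. With SCR library a left out, ITGA4 was −0.12, ITGB1 0.26 and ITGB5 0.027. With SCR library b left out, they were −0.35, 0.048 and 0.14. FN1 ran from 0.11 (without siTLN1 library a) to 0.38 (without siTLN1 library b), and none of these 4 genes passed the threshold in those fits. TLN1 ran from −4.28 to −4.07.

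The count of changed genes, 980, ran from 347 (without siTLN1 library a) to 1116 as libraries were left out, and that of the 9 subunits from 0 to 2. The ranges were 1 to 3 for the other subunits, 2 to 3 for ligands and 1 to 5 for tail-binding and traffic genes. With no filter, 1 other subunit and 4 tail-binding and traffic genes passed, against 663 of all 32708 genes. limma-trend without a block passed 1 other subunit, against 951 of all 16137 genes. Total counts only and DESeq2 each passed 4 ligands, against 1253 of 16137 and 847 of 12382 genes. The cause was not tested.

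Differences between replicates 1 and 2 correlated across genes at 0.19 between the groups (0.54 at 5 CPM or more), but no label states a pairing, and with 2 pairs the numbers were not used as pairs. With the replicate block in limma-trend, 3650 of all 16137 genes passed. Among them were 3 of the 8 tested subunits: ITGB8, ITGAV (0.37, adjusted p 1.37e-06) and ITGA4 (−0.24, adjusted p 0.00529). The block passed 4 of 8 other subunits, 6 of 21 ligands and 13 of 32 tail-binding and traffic genes. These counts stand beside a far larger share of all genes than the 6.07% of the reported fit. Without the block, limma-trend on the same values gave an adjusted p of 0.163 for ITGAV and 0.228 for ITGA4. Whether these subunits passed thus depended on whether the replicates were taken as pairs, which the labels do not settle.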
